A study of Mus musculus with 18 samples.

Results

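The comparison described here set the spinal cords of all 9 mice that carried human TDP-43 against those of the 9 mice that did not, and asked which mouse genes differ with human TDP-43 whatever form of ATXN2 is present. It used 18 of the 18 libraries, each from its own animal. The side with human TDP-43 held 3 mice heterozygous for the TDP-43 knock-in, 3 that also carried ATXN2 with 22 glutamines (Q22;TDP-43, here the Q22 double knock-in) and 3 that also carried ATXN2 with 33 glutamines (Q33;TDP-43, the Q33 double knock-in). The side without it held 3 non-transgenic C57BL/6 mice (NTg), 3 heterozygous Q22 knock-in mice and 3 heterozygous Q33 knock-in mice. All were untreated and 10 months old, and RNA came from cord described as whole, a mix of neurons, glia and vessels. The mean log2 CPM of caudal Hox genes ran from -2.61 to 3.21 between libraries. Whether each library held every level of the cord was not tested. The form of ATXN2 was kept as a block, so that each mouse with human TDP-43 was read against mice of its own ATXN2 state (no knock-in, Q22 or Q33). The comparison was repeated on the 12 libraries left without Q33 and the Q33 double knock-in. The strain of the knock-in mice, the loci of the human sequences, their promoters and the sex of the animals are not given in the sources used here.

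TDP-43 is a nuclear RNA-binding protein that binds runs of alternating U and G in introns, in the 3′ ends of transcripts and in long noncoding RNAs, and shapes their splicing and stability. It leaves the nucleus and forms inclusions in motor neurons of most patients with amyotrophic lateral sclerosis (ALS). ATXN2 is a cytoplasmic RNA-binding protein of stress granules, and moderate expansion of its glutamine tract raises the risk of that disease. Neat1, to which the results below turn, is a long noncoding RNA that stays in the nucleus and forms the scaffold of paraspeckles, bodies that hold several RNA-binding proteins. TDP-43 is known to bind it.

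The stretch of Neat1 with the densest UG repeat is shown because Neat1 was the named gene that fell with human TDP-43. It lies in the only exon of the longest Neat1 transcript (Neat1-201, 20771 bases, GENCODE vM21 on GRCm38, the same build as mm10), at chr19:5825962-5826111 on the minus strand, bases 19368 to 19517 of the transcript. A stretch of Malat1, an abundant nuclear RNA from the same chromosome, is given for comparison (chr19:5799638-5799787, minus strand). It holds as many such bases as any other stretch of that transcript. The Neat1 and Malat1 stretches both run 5′ to 3′ for 150 bases. Capitals mark the letters GTGTGT, the DNA form of a UG repeat, with overlapping matches counted.
Neat1: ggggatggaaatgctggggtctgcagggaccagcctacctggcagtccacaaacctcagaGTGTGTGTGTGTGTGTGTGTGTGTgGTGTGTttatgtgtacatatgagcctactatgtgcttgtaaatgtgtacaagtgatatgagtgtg
Malat1: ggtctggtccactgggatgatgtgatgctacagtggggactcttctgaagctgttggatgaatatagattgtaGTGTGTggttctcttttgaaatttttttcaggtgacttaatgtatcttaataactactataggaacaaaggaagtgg
The Neat1 stretch held 11 matches and the Malat1 stretch 1. Over whole transcripts Neat1-201 held 37 matches to GTGTGT and 27 to ACACAC, its reverse complement, against 2 and 2 in Malat1-201. Cut into windows of 300 bases, 14 of 69 Neat1 windows (20.3%) held GTGTGT, beside 25484 of 225045 windows (11.3%) in the longest transcripts of all genes tested. ACACAC was in 9% of those windows and one or the other in 19.3%. Per kilobase, 9.84% of genes were as dense as Neat1 or denser, and 25 of 431 transcripts of at least 10000 bases (5.8%) had as many matches. A match describes these letters and does not show binding, and whether TDP-43 binds Malat1 was not examined here.

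Library depth ran from 16061359 to 30978678 counts, and 20635 genes passed edgeR's filter for low counts. Levels are CPM, each library's counts divided by its total and rescaled by TMM, a correction for the makeup of each library, and 3 counts corresponded to 0.097 to 0.19 CPM. Markers of cord cells were present in every library, among them Chat of motor neurons (13.3 to 38.6 CPM), Mbp of myelin (3470 to 5750 CPM) and Slc1a2 of astrocytes (4120 to 5780 CPM). Mitochondrial ribosomal RNA took 20.9% ± 4.83 of counts with and 19.4% ± 2.39 without human TDP-43 (SD, n = 9 each), with its highest shares in the Q33 double knock-in (28.7%, 26.3% and 23.4%). Hox genes of the caudal cord had a mean log2 CPM above 1 in 4 libraries (Q33 replicates 2 and 3, Q22 double knock-in replicate 1 and Q33 double knock-in replicate 2). In an exact permutation test within ATXN2 states (two-sided, 8000 arrangements), the difference between the sides passed for neither (p = 0.35 and p = 0.48, both 0.6 after Benjamini-Hochberg adjustment over 5 library properties). Y-linked genes exceeded 10 CPM in 4 of 9 libraries with and 5 of 9 without human TDP-43. By group this was 0 of 3 NTg against 2 of 3 TDP-43 libraries, and 3 of 3 Q22 against 1 of 3 Q22 double knock-in. It was 2 of 3 Q33 against 1 of 3 Q33 double knock-in. No pair was balanced in this, and its part in the effects by pair was not tested.

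Levels of the mouse counterparts of both human sequences differed little between the sides. Mouse Tardbp, which encodes TDP-43, was at 121 CPM ± 5.36 with and 118 CPM ± 7.66 without the human sequence (SD, n = 9 each), a log2 difference of 0.04 with a 95% interval of -0.05 to 0.14. Mouse Atxn2 was at 181 CPM ± 10.8 and 181 CPM ± 8.1, a log2 difference of -0.01 with an interval of -0.11 to 0.1. These are counts of mouse genes, and they do not check the presence or level of the human sequences. Tardbp itself controls its own transcript, so its level is also a readout of TDP-43. The transcript did not pass the test in edgeR (unadjusted p = 0.33).

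Few genes passed the test of human TDP-43 over all 3 ATXN2 states. In edgeR's quasi-likelihood test with Benjamini-Hochberg adjustment at 0.05, 2 of 20635 genes were lower with human TDP-43 (0.00969%) and 0 were higher (0%). The genes that fell were Neat1 and Gm43041, a gene model without a known role. At an unadjusted p under 0.05 there were 943 genes (4.57%), 401 higher (1.94%) and 542 lower (2.63%), where the threshold alone would give 1032. On the same genes DESeq2 called 15, of which 7 were higher and 8 lower, and limma-voom called 1. All 15 had the same sign in each of the 3 pairs of groups that share an ATXN2 state. Over genes averaging 1 CPM or more on either side 17% did. The 15 were chosen on the difference over all 18 libraries, which these pairs make up, so their shared signs are not separate support.

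Neat1 fell in the comparison of all 18 libraries. In animals with no ATXN2 knock-in it was at 309, 346 and 286 CPM in NTg and at 287, 226 and 237 CPM with TDP-43. With Q22 it was at 231, 293 and 322 CPM without and at 205, 210 and 229 CPM with human TDP-43. With Q33 the values were 284, 288 and 328 CPM without and 219, 214 and 195 CPM with it. In the Q22 and Q33 pairs every library with human TDP-43 was below every library without it. In the pair with no knock-in 1 library, TDP-43 replicate 1, lay among the NTg values. Neat1 was named for its difference over these same libraries, so this separation is not separate support. Over all 18 libraries the level was 225 CPM ± 26.7 with (195 to 287, median 219) and 299 CPM ± 33.4 without human TDP-43 (231 to 346, median 293), and 7 of the 9 with it were below the lowest of the others.

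The log2 fold change of Neat1 was -0.41 (SE 0.07, 95% interval -0.56 to -0.27), or 0.751 times the level without human TDP-43, with an adjusted p of 0.043 in edgeR. By pair it was -0.33 with no ATXN2 knock-in, -0.39 with Q22 and -0.52 with Q33, and edgeR's test of a difference between these 3 gave an adjusted p of 0.79. The direction held in every setting tried, from -0.45 to -0.35, but the adjusted p lay close to the threshold. Leaving out 1 library at a time kept the call in 3 of 18 cases and ended it in the other 15, with an adjusted p of up to 0.15, and the value was 0.051 in limma-voom and 0.00016 in DESeq2. It was 0.057 with DESeq2 size factors, 0.16 with library totals and 0.15 without the ATXN2 block in edgeR. With a covariate of caudal Hox genes, mitochondrial ribosomal RNA or Y-linked genes the adjusted p of Neat1 was 0.077 to 0.082 in edgeR. It was 0.76 without the 4 libraries of high caudal Hox genes (log2 fold change -0.37) and 0.14 without the 2 of highest mitochondrial ribosomal RNA (-0.41). Neat1 (ENSMUSG00000092274.3) spans chr19:5824708-5845478 on the minus strand as a lincRNA. Its short and long forms share their 5′ end, and the counts per gene do not separate them.

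Neat1 was the only nuclear long noncoding RNA of its list to pass. Of 9 tested, 1 was called, which was Neat1, beside 2 of 20635 genes (0.00969%) over all genes tested. The median log2 fold change of the 9 was 0.02, against 0 over all genes. Malat1 was at 12400 CPM with and 12800 CPM without human TDP-43, a log2 difference of -0.06 (SE 0.06, unadjusted p = 0.32 in edgeR). Meg3, an imprinted RNA of neurons, had a log2 difference of 0.05 (SE 0.08). Protein genes of paraspeckles were in the list of RNA-binding proteins below, and none of them was called, as for nearly all genes.

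Gm43041 had the smallest p of all genes and was named after its values were seen, because the rule for naming leaves out unnamed gene models. It was at 5.02, 4.22 and 4.36 CPM in NTg and 3.28, 3.06 and 2.56 CPM in TDP-43. It was at 3.73, 4.15 and 2.98 CPM in Q22 and 1.84, 2.31 and 2.03 CPM in the Q22 double knock-in. It was at 3.89, 4.27 and 4.25 CPM in Q33 and 2.14, 2.25 and 2.43 CPM in the Q33 double knock-in. Within each of the 3 pairs the groups did not overlap. Gm43041 was chosen on the difference over these same libraries, so this is not separate support. The share of all genes without overlap was not counted. The mean was 2.43 CPM ± 0.471 with and 4.1 CPM ± 0.551 without human TDP-43 (SD, n = 9 each), which differ by -0.76 on the log2 scale (SE 0.10, interval -0.99 to -0.54; adjusted p = 0.0064 in edgeR). The call held in all 18 cases with 1 library left out.

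Gm43041 (ENSMUSG00000104563.1) is a single exon of 2630 bases at chr5:59953511-59956140 on the minus strand, with no gene model overlapping it and the nearest protein-coding gene, Pcdh7, 1820.3 kb away. Of its 2581 words of 50 bases, 1478 (57.3%) also occur in transcripts of 11 other genes, so which copy its reads came from is uncertain. It holds no match to GTGTGT. Without the 4 libraries of high caudal Hox genes its log2 fold change was -0.69 (adjusted p = 0.34 in edgeR), and without the 2 libraries of highest mitochondrial ribosomal RNA it was -0.72 (adjusted p = 0.12), with fewer animals in each fit. The call was also lost without the ATXN2 block (adjusted p = 0.068 in edgeR) and with any 1 ATXN2 state left out (0.1 to 0.44).

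**Figure D1:**
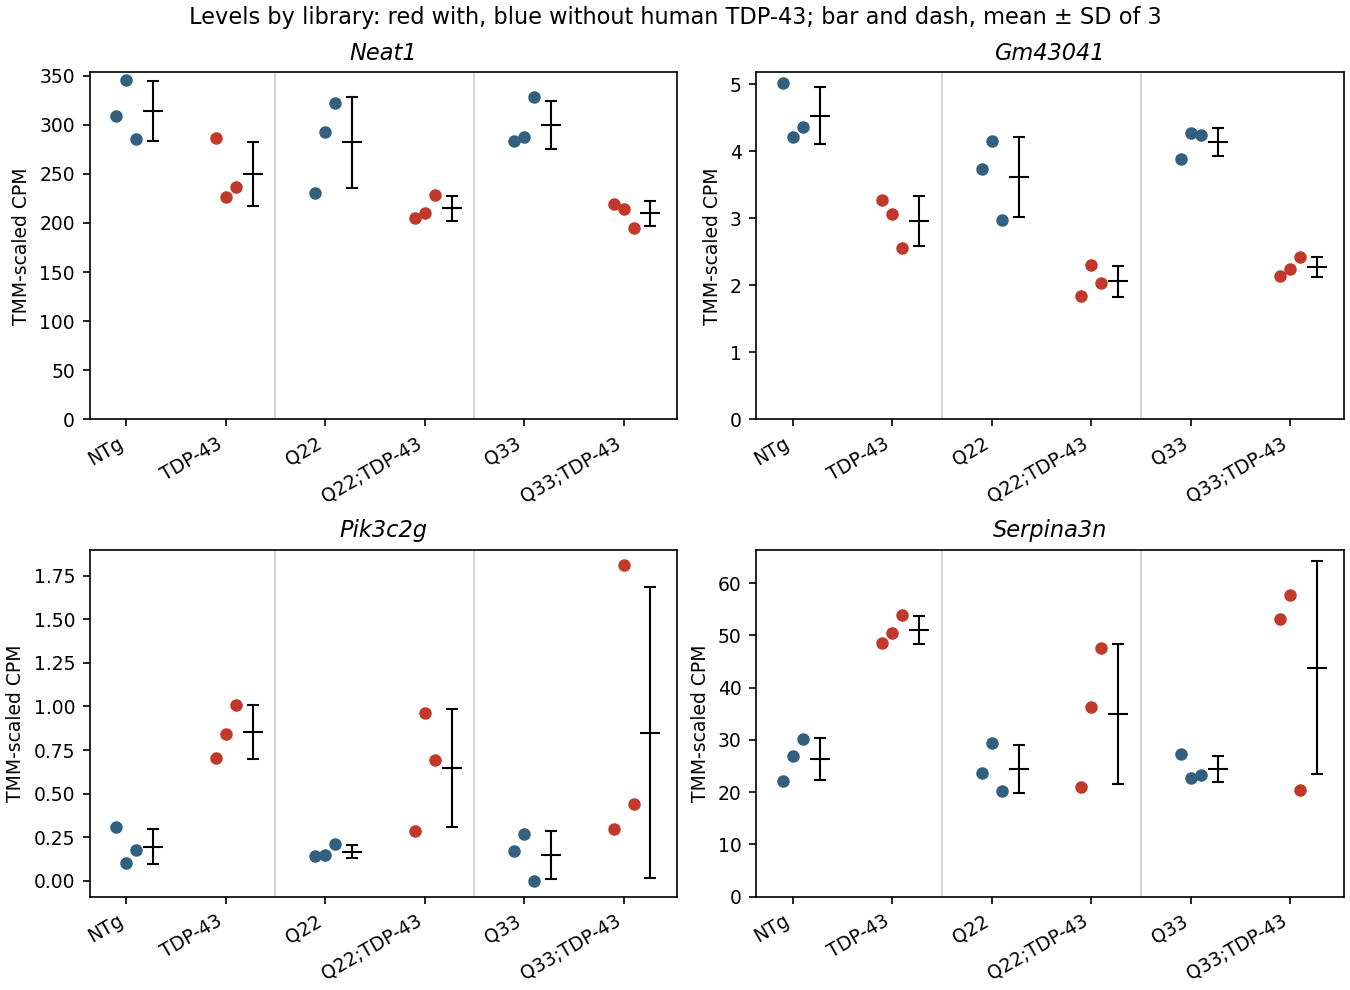
TMM-scaled CPM of Neat1, Gm43041, Pik3c2g and Serpina3n in each of the 18 libraries, by genotype, with human TDP-43 in red and without it in blue, and the mean and SD of 3 beside each group. Gm43041 is lower in each group with human TDP-43 than in its partner without overlap, while 1 Neat1 library of TDP-43 (287 CPM) lies among the NTg values.

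Among genes with higher estimates, Pik3c2g had the smallest p. It encodes a class II phosphoinositide 3-kinase. Its levels were 0.307, 0.104 and 0.178 CPM in NTg, 0.142, 0.148 and 0.21 CPM in Q22 and 0.171, 0.27 and 0 CPM in Q33. With human TDP-43 they were 0.702, 0.841 and 1.01 CPM, then 0.286, 0.962 and 0.691 CPM in the Q22 double knock-in and 0.3, 1.81 and 0.442 CPM in the Q33 double knock-in. These values rest on 0 to 8 reads per library without and 7 to 45 with human TDP-43, and 7 of 9 libraries with it exceeded the highest of the others. The log2 fold change was 2.17 (SE 0.42), with 2.05, 1.92 and 2.54 by pair, and the adjusted p was 0.16 in edgeR and 0.0018 in DESeq2. Pik3c2g lies at chr6:139587221-139969284.

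A pair of neighbouring serine protease inhibitors on chromosome 12 had higher estimates too. Serpina3n, a secreted inhibitor that marks reactive glia, was at 22.2, 26.9 and 30.2 CPM in NTg against 48.6, 50.4 and 53.9 CPM in TDP-43. It was at 23.6, 29.4 and 20.2 CPM in Q22 against 21, 36.3 and 47.6 CPM in the Q22 double knock-in, and at 27.3, 22.7 and 23.3 CPM in Q33 against 53.2, 57.8 and 20.4 CPM in the Q33 double knock-in. The groups did not overlap with no ATXN2 knock-in, and in each of the other pairs 1 library with human TDP-43 was as low as those without it. Its log2 fold change was 0.77 (SE 0.18), with an adjusted p of 0.5 in edgeR and 0.0068 in DESeq2. Serpina3m had 3, 0 and 0 reads in NTg, 0, 0 and 1 in Q22 and 0, 1 and 0 in Q33. With human TDP-43 it had 7, 37 and 32 reads where ATXN2 was not altered, then 0, 0 and 18 reads with Q22, and 34, 28 and 0 reads with Q33. Its adjusted p was 0.28 in edgeR, and 3 libraries with human TDP-43 had no read of it. Of its words of 50 bases 19.1% occur in related genes, and of those of Serpina3n 6.9% do, so reads could be lost or split between family members. Serpina3n was named after its values were seen.

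Of the other named genes, Ccdc117, Dnase1l2, Arl4d and Smim10l1 had higher estimates. Smim10l1, which encodes a small membrane protein, was at 179 CPM ± 9.07 with and 157 CPM ± 7.61 without human TDP-43, a log2 fold change of 0.19, and 8 of 9 libraries with it exceeded all of the others. Dnase1l2, a DNA-cutting enzyme, was at 1.81 CPM ± 0.397 and 1.08 CPM ± 0.223, also with 8 of 9 libraries above the others. Arl4d, a small GTPase, was at 6.55 CPM ± 1.64 and 4.05 CPM ± 0.971, and Ccdc117 at 14.3 CPM ± 2.69 and 10.6 CPM ± 1.01. Their adjusted p was 0.32 to 0.34 in edgeR and 0.0033 to 0.037 in DESeq2.

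Lower estimates among the named genes belonged to Fyco1, Pde6h, Cd180, Hrasls5 and Mmrn1. Fyco1, an adaptor that links autophagosomes to kinesin motors, was at 116 CPM ± 14 with and 141 CPM ± 12.2 without human TDP-43, with log2 differences of -0.13, -0.2 and -0.54 by pair. Cd180, a relative of Toll-like receptors on B cells and macrophages, was at 2.54 CPM ± 0.815 and 4.07 CPM ± 0.879. Pde6h, an inhibitory subunit of the cone phosphodiesterase, was at 0.54 CPM ± 0.215 and 1.11 CPM ± 0.211, and 8 of 9 libraries with human TDP-43 were below all of the others. These 3 had an adjusted p of 0.32 in edgeR and 0.037 in DESeq2. Hrasls5, a phospholipid acyltransferase, and Mmrn1, a multimerin of platelets and endothelium, were near the floor of 3 counts with human TDP-43 (0.175 CPM and 0.112 CPM).

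**Figure D2:**
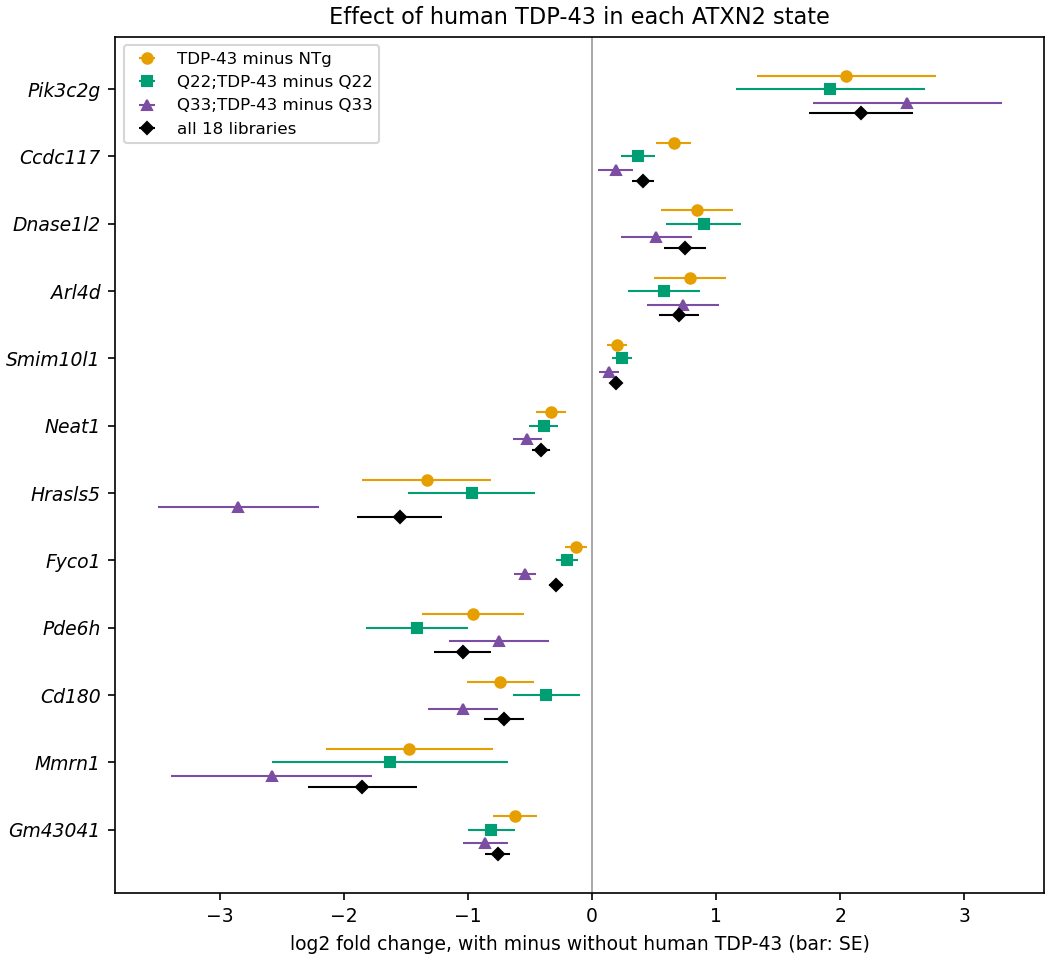
Log2 fold change with minus without human TDP-43 (bars, SE) for the named genes, Gm43041 included and Serpina3m left out, in each of the 3 ATXN2 states and over all 18 libraries. Neat1 has -0.33, -0.39 and -0.52 by state, while Fyco1 ranges from -0.13 to -0.54 and Ccdc117 from 0.66 to 0.19.

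Without the Q33 groups no gene passed. Of 20106 genes tested on 12 libraries, 0 were called by edgeR (0%), with a smallest adjusted p of 0.44, and 791 had an unadjusted p under 0.05 (3.93%; 461 higher and 330 lower). DESeq2 called 14 genes there, 7 of which were among the 15 of all 18 libraries, and limma-voom called 0. The log2 fold change was -0.35 for Neat1 (SE 0.09) and -0.70 for Gm43041, with adjusted p-values of 0.71 and 0.44 in edgeR.

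The genes of smallest p in the 12 libraries were then read in Q33 and the Q33 double knock-in fitted alone, 6 libraries that had not entered that fit. Higher estimates without the Q33 groups belonged to Slc25a18, a mitochondrial glutamate carrier of astrocytes (0.43), Ahsa2, related to a cochaperone of Hsp90 (0.50), Vegfa, the angiogenic factor (0.38), and Jmjd6, a hydroxylase of splicing factors (0.39), beside Pik3c2g and Ccdc117. In the Q33 libraries these 4 were 0.18, 0.09, -0.09 and 0.02. Lower estimates belonged to Egf (-0.59), H3f3aos (-0.83), Zc3h6 (-0.38) and Ssbp1, a DNA-binding protein of mitochondria (-0.27), beside Pde6h and Neat1. In the Q33 libraries these 4 were -0.24, -0.10, -0.21 and -0.07. Of the 12 genes named, 11 were measured there and 10 had the same sign, with Vegfa opposite. Only Neat1 had an unadjusted p under 0.05 (log2 fold change -0.52, adjusted p = 0.025 in edgeR over 18957 genes). Over all 18957 genes 17.9% had one. How many of all genes kept their sign between these fits was not counted.

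The 3 pairs of groups shared little else. TDP-43 against NTg gave 0 genes (0%) and the Q22 double knock-in against Q22 gave 0 (0%), while the Q33 double knock-in against Q33 gave 202 (0.979%), 56 higher and 146 lower. At an unadjusted p under 0.05 the counts were 851 (4.12%), 829 (4.02%) and 3635 (17.6%). The last count of calls rested on single libraries: it was 6 without Q33 double knock-in replicate 1, 17 without Q33 replicate 1, 31 without Q33 replicate 2, 111 without Q33 replicate 3 and 494 without Q33 double knock-in replicate 3. That pair also differed in mitochondrial ribosomal RNA (26.1% against 20.4% on average), whose part in the count was not tested.

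Across the 16487 genes that averaged 1 CPM or more on either side, effects of different pairs did not rise and fall together. The pairs share no library. Pearson's r across genes, which are not independent replicates, was -0.11 between the states with no knock-in and Q22, -0.04 between no knock-in and Q33 and -0.15 between Q22 and Q33. The same sign in all 3 pairs was seen in 2798 genes (17%). Of the 202 genes called in the Q33 pair, 127 had the same sign in the pair with no knock-in and 36 in the Q22 pair, and 0 were called in either. Over the 16487 genes 46.8% had the same sign in the Q33 pair as with no knock-in, and 39.6% the same as in the Q22 pair. In the comparison of all 18 libraries the median SE was 0.10 on the log2 scale, and for 16187 of those 16487 genes (98.2%) the 95% interval lay within a 2-fold change. For the 4148 genes below 1 CPM the median SE was 0.31 and the share 62.3%.

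For 10 genes the effect of human TDP-43 differed between ATXN2 states, by edgeR's test of the interaction (10 of 20635, 0.0485%; 2568 at an unadjusted p under 0.05). All 10 had a lower level with human TDP-43 in the Q33 pair, which passed edgeR's test there for 9 and missed it for Egr1 (adjusted p = 0.052), and none was called in either other pair. Cpne5, a calcium-dependent membrane-binding copine, was at 5.52, 5.3 and 4.97 CPM in Q33 and at 1.39, 1.37 and 2.03 CPM in the Q33 double knock-in. Its log2 effects were 0.13 with no knock-in, 0.49 with Q22 and -1.73 with Q33 (interaction adjusted p = 0.0082). Cacna1g, a T-type calcium channel, was at 63.2, 58.3 and 56.2 CPM in Q33 and 33.1, 34 and 34.9 CPM in the Q33 double knock-in, with effects of -0.03, 0.23 and -0.80 (adjusted p = 0.0082). In the Q33 pair the groups did not overlap for either gene. Both genes were chosen on these same libraries, so this is not separate support.

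The same pattern held for Necab1, a calcium-binding protein (-0.19, 0.34 and -1), Pdyn, the precursor of dynorphin (-0.24, 0.33 and -1.74), and Egr3, an immediate early transcription factor (0.31, 0.78 and -1.84). It also held for 4 genes named after their values were seen: Otof, a calcium sensor of vesicle release (-0.05, 0.44 and -1.79), Gpr26, an orphan receptor (-0.07, 0.43 and -1.55), Nrgn, the calmodulin-binding neurogranin (0.13, 0.67 and -2.04), and Zfp831 (-0.06, 0.34 and -1.82). Egr1, another immediate early factor seen after the fact, was at 16.4, 10 and 13.4 CPM in NTg against 17.7, 22.4 and 22.4 CPM in TDP-43, and at 16.3, 16.6 and 16.6 CPM in Q33 against 10.5, 9.84 and 12.1 CPM in the Q33 double knock-in. Its effects were 0.65, 0.33 and -0.61. The adjusted p of the interaction was 0.025 to 0.049 for these 8 genes in edgeR. No gene passed this test without Q33 replicate 1 or without Q33 double knock-in replicate 1, and 128 passed without TDP-43 replicate 2.

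**Figure D3:**
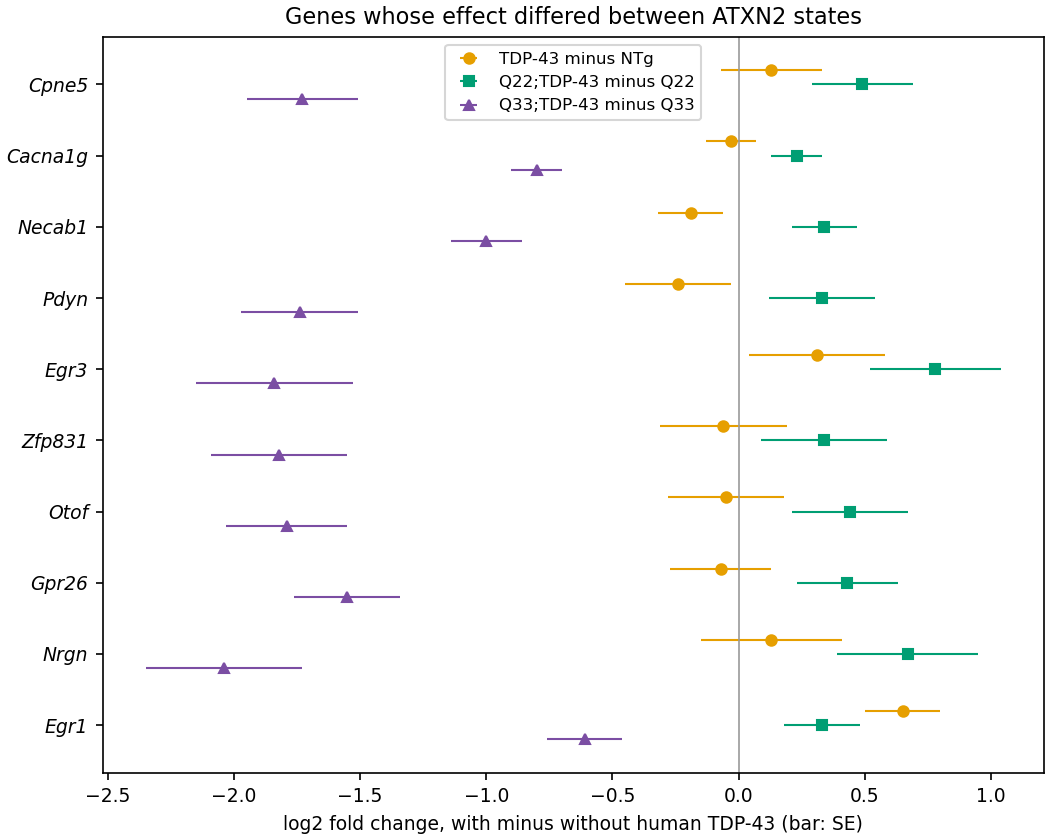
Log2 fold change with minus without human TDP-43 (bars, SE) in each ATXN2 state for the 10 genes whose effect differed between states. For 9 of them the Q33 pair stands apart on the lower side, from -0.80 for Cacna1g to -2.04 for Nrgn, and Egr1 goes from 0.65 with no knock-in to -0.61 with Q33.

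Genes listed as working with TDP-43 or responding to it gave no call in the comparison of all 18 libraries. Only 2 of all 20635 genes (0.00969%) were called there, so 0 in lists of this size is near that share. In the Q33 pair 1 member was called lower in each of the lists of RNA-binding proteins, splicing targets and ALS genes. None was called higher there, and 0.979% of all genes were called in that pair. Of 25 genes of TDP-43, FET and hnRNP RNA-binding proteins, 0 were called and 1 had an unadjusted p under 0.05 (4.57% over all genes): Hnrnpl, a splicing factor, at 118 CPM ± 4.66 with and 110 CPM ± 6.9 without human TDP-43. Their log2 differences ran from -0.17 to 0.10, with a median of 0.01, and Tia1, a stress granule protein, was at -0.16 and Rbfox2, a neuronal splicing factor, at 0.08. Without the Q33 groups 4 of the 25 had an unadjusted p under 0.05, all higher (3.93% over all genes there), 22 estimates were positive and the median was 0.07. Of 20 partners of ATXN2 and stress granule genes 0 were called and 0 had an unadjusted p under 0.05, with differences of -0.10 to 0.07 (Tial1 -0.10, Pum2 -0.07, G3bp2 0.07). Of 31 ALS genes 29 were tested and 0 had an unadjusted p under 0.05, with a median of 0.02 (Ubqln2 -0.08, Nek1 0.06).

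The 18 genes listed as splicing targets of TDP-43 had a median log2 difference of 0.04 in their level, with 0 called over all 18 libraries. Whether each of them, Stmn2 and Unc13a included, is such a target in mouse cord was not tested. Stmn2, a regulator of axonal microtubules, was at 222 CPM ± 66.6 with and 207 CPM ± 29.9 without human TDP-43. Its differences were -0.18, -0.12 and 0.46 by pair. Unc13a, a priming factor of synaptic vesicles, was at 115 CPM ± 7.65 and 112 CPM ± 6.73, and Sort1, a sorting receptor, at 306 CPM ± 27.6 and 313 CPM ± 13. Counts per gene do not show which exons were used. Adnp2 had an unadjusted p of 0.04 in edgeR (log2 difference 0.12). Kcnip2, a subunit of potassium channels, had -0.29, 0.34 and -1.59 by pair, and was called in the Q33 pair (adjusted p = 0.013 in edgeR). Of 21 long neuronal genes that TDP-43 is known to bind in their introns 0 were called, with a median of -0.04 and differences from -0.17 (Nkain2) upward. Ptprd, a receptor phosphatase, was at -0.14 and was the only one with an unadjusted p under 0.05.

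By count, stress and chaperone genes held the most members of low unadjusted p, all on the higher side, with 0 called. Of 16 heat shock chaperones 8 had an unadjusted p under 0.05 and higher estimates, against 1.94% of all genes, and the list's median was 0.36 with no knock-in, -0.04 with Q22 and 0.09 with Q33. Hspa1a, the inducible Hsp70, was at 6.79, 30.6 and 4.66 CPM in TDP-43 and at 1.96, 2.81 and 2.4 CPM in NTg. It was at 2.74, 3.73 and 4.33 CPM in the Q22 double knock-in against 2.74, 2.77 and 2.1 CPM in Q22, and at 3.45, 2.73 and 3.63 CPM in the Q33 double knock-in against 2.57, 2.2 and 2.33 CPM in Q33. The value of TDP-43 replicate 2 stood above all others, as it did for Hspa1b (26.6 CPM) and Dnajb1, a cochaperone of Hsp70 (59 CPM). Without that library 4 of the 16 had an unadjusted p under 0.05 and the median was 0.06, and 4 were also counted without NTg replicate 2, Q22 replicate 3, Q33 replicate 2 or the Q33 groups, and 5 without NTg replicate 1, Q33 replicate 1 or Q33 double knock-in replicate 1.

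Of 21 genes of the unfolded protein response 5 had an unadjusted p under 0.05, all with higher estimates (Calr 0.19, Manf 0.19, Hspa5 0.14, Herpud1 0.14 and Hsp90b1 0.13), and 0 were called. Hspa5 also belongs to the heat shock list, so the lists are not separate. Calr, a chaperone of the endoplasmic reticulum, was at 561 CPM ± 48.8 with and 494 CPM ± 57.4 without human TDP-43. The list's median was 0.26 with no knock-in, 0.02 with Q22 and 0.03 with Q33. Without TDP-43 replicate 2 there were 2 such genes, and 3 without NTg replicate 2, Q22 replicate 3 or Q33 replicate 2.

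Markers of homeostatic microglia had lower estimates in the 18 libraries. Of 14 markers of homeostatic microglia 4 had an unadjusted p under 0.05, all lower, against 2.63% of all genes, and 0 were called. These were P2ry13, at 4.32 CPM ± 0.668 with and 5.5 CPM ± 0.911 without human TDP-43, Itgam (9.32 CPM ± 2.59 and 11.6 CPM ± 2), Siglech (10.6 CPM ± 2.17 and 12.5 CPM ± 1.48) and Cx3cr1 (45.3 CPM ± 10.6 and 52.9 CPM ± 7.24). P2ry12 and Tmem119, defining markers of the same cells, had log2 differences of -0.17 and 0.08. The median was -0.09, -0.07 and -0.35 by pair, and the summed level of the list ran from 243 to 419 CPM with and from 299 to 413 CPM without human TDP-43. Without the Q33 groups 1 marker was higher and 1 lower at an unadjusted p under 0.05, 6 of the 14 estimates were positive and the median was -0.01. The 18 genes of disease-associated microglia had a median of -0.02, with 7 positive estimates, 0 called and 2 at an unadjusted p under 0.05, both lower. These were Clec7a, a receptor, at 1.73 CPM ± 0.882 and 2.92 CPM ± 1.22, and Lpl, a lipase, at 6.63 CPM ± 3.06 and 8.87 CPM ± 1.9. Libraries of whole cord cannot tell fewer cells of a type from less RNA per cell.

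Most vessel genes had higher estimates, and none of them was called over all 18 libraries. Of 14 endothelial markers 12 had a positive log2 difference (10129 of 20635 over all genes), with a median of 0.15 and an unadjusted p under 0.05 for Tie1, a receptor of endothelial cells (0.37), and Vwf, the von Willebrand factor (0.30), where 1.94% of all genes were that low in p and higher. With 1 library left out that count was 4 without Q22 replicate 2, and 3 without Q22 replicate 3, Q22 double knock-in replicate 3 or Q33 double knock-in replicate 1. It was 1 without NTg replicate 2, Q33 replicate 1 or 2, TDP-43 replicate 2 or 3, Q22 double knock-in replicate 1 or 2, or Q33 double knock-in replicate 2 or 3. The summed level was 320 to 454 CPM with and 242 to 385 CPM without human TDP-43. The lowest endothelial estimate was -0.63, and the list's medians by pair were 0.15, 0.06 and 0.25. In the Q33 pair 1 endothelial marker was called lower, where 0.979% of all genes were called. Pericyte and smooth muscle markers had a median of 0.19, and Vtn was at 10.2 CPM ± 1.83 and 8.47 CPM ± 1.6. Reactive astrocyte genes had a median of -0.07, with Gfap at 911 CPM ± 523 and 940 CPM ± 279, and Serpina3n was the only one with an unadjusted p under 0.05.

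Among lists of the cord's neurons, motor neuron markers had a median of -0.05 (-0.02, -0.36 and 0 by pair) with 0 of 16 at an unadjusted p under 0.05, and a summed level of 399 to 1020 CPM with and 467 to 895 CPM without human TDP-43. Their median was -0.16 without the Q33 groups and lay between -0.23 and 0 with 1 library left out, with the lowest value without Q33 double knock-in replicate 2 and 0 without Q22 replicate 1 or Q33 replicate 3. Excitatory dorsal horn markers had medians of -0.17, 0.38 and -0.87 by pair, and Cck, a neuropeptide, was at 6.93 CPM ± 1.18 and 9.01 CPM ± 1.46. Caudal Hox genes, which mark the lumbar and sacral cord, had -0.87, 3.84 and 0.71, and skeletal muscle genes 0.63, -1.17 and -3.14. The part of cord level or of attached muscle in the other values was not tested beyond the fits given in the closing section. Over 46 lists 1 had a called member, 31 had a median within 0.1 of zero, and 6 had medians of the same sign in all 3 pairs.

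**Figure D4:**
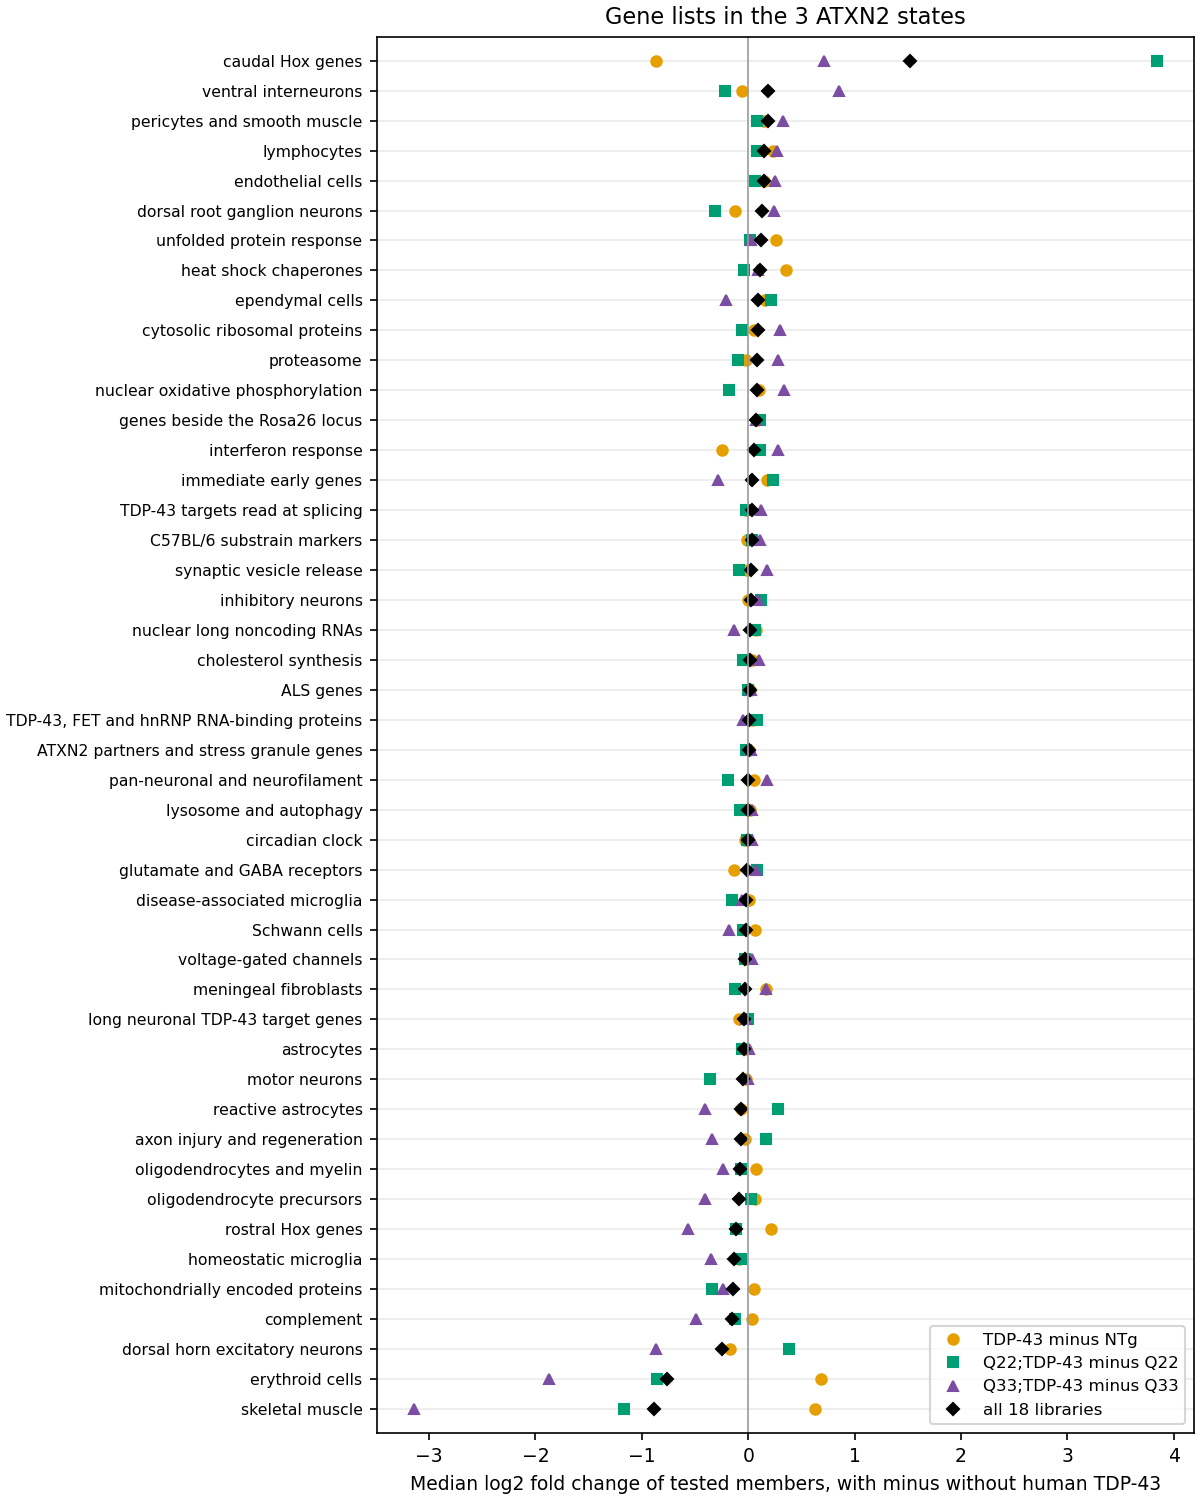
Median log2 fold change, with minus without human TDP-43, of the tested members of 46 gene lists over all 18 libraries and in each ATXN2 state. Most black diamonds lie within 0.1 of zero while the states spread around them, most for the caudal Hox genes, whose medians were -0.87, 3.84 and 0.71.

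Genes of low p were most frequent on chromosome 6. There 77 of 1102 genes (6.99%) had an unadjusted p under 0.05, with 5.27% on chromosome 17 and 5.18% on chromosome 9 next and 4.57% over all genes, and 0 were called. In equal windows along this chromosome the share was highest at 60 to 70 Mb (5 of 24, 20.8%). It was 17.3% at 130 to 140 Mb, 13.7% at 120 to 130 Mb and 11.1% at 100 to 110 Mb. Between 120 and 140 Mb, a window chosen after seeing the data, the count was 28 of 191 (14.7%). In TDP-43 against NTg 8.38% of the genes there had an unadjusted p under 0.05 (4.12% over all genes), in the Q22 pair 7.85% (4.02%) and in the Q33 pair 18.8% (17.6%). Without the Q33 groups it was 25 of 182 (13.7%, against 3.93%), and with 1 library left out at a time 9.64% to 14.2%.

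Named genes in that window were Pik3c2g, Smim10l1, Pde6h and Slc25a18. Others there with an unadjusted p under 0.01 were, seen after the fact, Ninj2, an adhesion protein of glia (-0.71), Apold1, an endothelial early response gene (0.72), Rimklb (-0.23), Tex52 (-0.35), Clec7a (-0.76) and 2 gene models. Estimates there lay on both sides of zero. Within 5 Mb of mouse Tardbp 5 of 102 genes (4.9%) and within 5 Mb of Atxn2 7 of 169 (4.14%) had an unadjusted p under 0.05. Within 5 Mb of Gt(ROSA)26Sor, a locus often used for knock-ins that also lies on chromosome 6, the count was 6 of 96 (6.25%). Its own transcript was at 8.59 CPM ± 1.63 with and 6.55 CPM ± 0.97 without human TDP-43 (log2 difference 0.39, adjusted p = 0.89 in edgeR), and it overlaps Thumpd3. The place where the human sequences were inserted is not given in the sources used here.

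**Figure D5:**
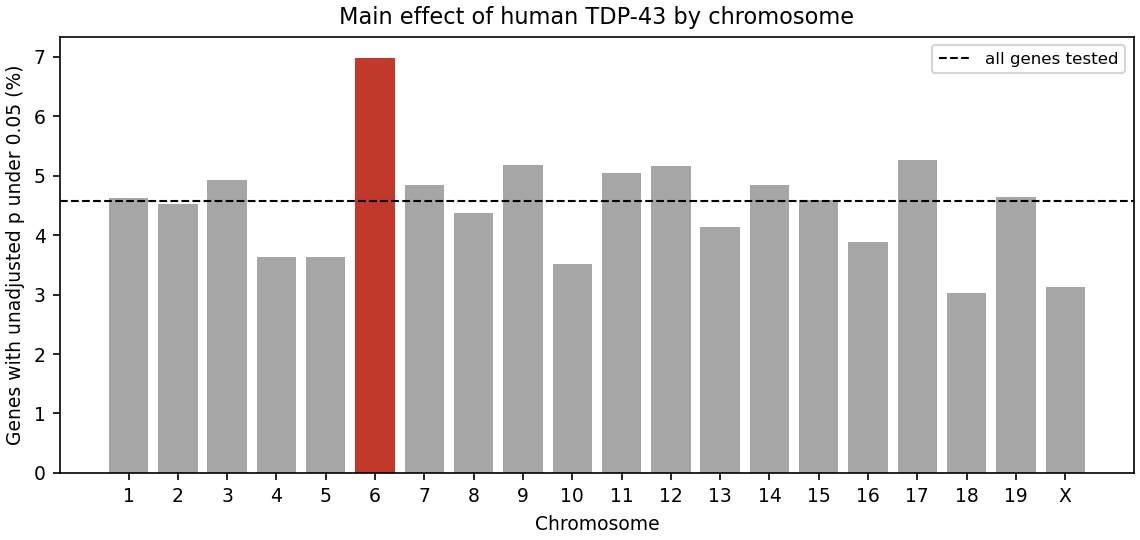
Share of genes with an unadjusted p under 0.05 in the comparison of all libraries with and without human TDP-43, by chromosome, in percent, with the share over all genes (4.57%) as a dashed line. Chromosome 6, in red, has the highest share, 6.99%.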

How the data were processed

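RNA was extracted from whole spinal cord and depleted of ribosomal RNA, and stranded libraries were sequenced as read pairs of 100 bases on 3 HiSeq4000 lanes, per the labels' protocols. The deposited values are whole-number counts per gene, made by the authors with featureCounts 1.6.1 in stranded paired mode on TopHat alignments and GENCODE vM19 (mm10), per the file headers. Trim Galore 0.4.1 and DESeq2 are also named, per the submitters' processing notes. Chimeric pairs were not counted.

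Counts were tested with edgeR 4.0.16 (R 4.3.3; quasi-likelihood, TMM, filterByExpr on 6 groups, two-sided, Benjamini-Hochberg over all genes tested) with ATXN2 state as a block. CPM values divide by the TMM-scaled library total. Interaction and pair effects came from 1 fit with a term per genotype (2 degrees of freedom for the interaction). Alternatives were DESeq2 1.42.0, limma 3.58.1 voom, other scalings and filters, covariates and left-out libraries or groups. The scripts were tested on simulated data. Replicate numbers follow accession order and pair nothing.

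Named were Tardbp and Atxn2, called genes averaging 1 CPM or more on either side, the genes of smallest p up to 6 per direction, the 5 smallest p of the interaction and 3 genes of each TDP-43-related list, gene models and sex-linked genes left out. Some genes that this rule takes are not reported here. Members and lists were chosen with earlier results of these data known. Of 54446 gene identifiers 54409 had a symbol. Promoter and protein sequences were not used here. The human sequences themselves were not analysed here. The SE of each log2 fold change was derived from edgeR's F statistic, since the test itself gives no interval. The 95% intervals multiply it by a t quantile with 14 residual degrees of freedom. They leave out the prior degrees of freedom behind edgeR's p-values, which makes them wide. They rest on the spread between animals, and the floors of 3 counts cover counting error only.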

Additional observations from a re-analysis of the deposited data

Results flagged for a closer look

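Among 40 sets of 9 libraries examined for a single library far from the rest (Dixon's ratio of the gap to the whole range, at its 95% critical value), 3 were found, where chance gives about 1 in 20. Neat1 in TDP-43 replicate 1 was at 287 CPM, with 237 CPM the nearest of the other libraries with human TDP-43 (ratio 0.54). Without it the adjusted p of Neat1 was 0.012 in edgeR. Pik3c2g in Q33 double knock-in replicate 2 was at 1.81 CPM, with 1.01 CPM the nearest (ratio 0.52). Serpina3m in NTg replicate 1 was at 0.115 CPM, from 3 reads, with 0.0449 CPM the nearest (ratio 0.61).

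The effect of human TDP-43 differed between ATXN2 states, by edgeR's test of the interaction, for Cpne5 and Cacna1g (adjusted p = 0.0082 each), Necab1 and Pdyn (0.025 each), Egr3, Gpr26 and Nrgn (0.031 each), Otof (0.033), and Zfp831 and Egr1 (0.049 each).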

How the results depend on the processing

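Counts of genes called moved with the method. For all 18 libraries (2 called) the count was 15 with DESeq2, 5 with no filter, 1 with DESeq2 size factors, library totals, limma-voom, a covariate of caudal Hox genes, of mitochondrial ribosomal RNA or of Y-linked genes, with mitochondrial genes left out or without the Q22 groups, and 0 without the ATXN2 block, without the NTg and TDP-43 groups or without the Q33 groups. It was also 0 without the 4 libraries of high caudal Hox genes and without the 2 of high mitochondrial ribosomal RNA, fits added after seeing the data, and 1 to 3 with each library left out. Without the Q33 groups (0 called) it was 8 with no filter, 14 with DESeq2, 1 with the caudal Hox covariate or without the 1 caudal Hox library, and 0 to 1 with each library left out. The interaction (10) gave 973 with no filter, 344 with DESeq2 and 0 to 128 with each library left out. The Q33 pair (202; 215 from its 6 libraries alone) gave 6 to 494.

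Of 1078 alternative values for 31 genes over all libraries 1059 kept their direction. Mouse Atxn2 (-0.01) was 0.00 with DESeq2 size factors, DESeq2, the caudal Hox covariate or mitochondrial genes left out, 0.01 with no filter, without the NTg and TDP-43 groups or without the 2 libraries, 0.02 without the Q22 groups or the 4 libraries, and -0.03 to 0.01 with each library left out. Tardbp was -0.01 without the Q22 groups and Kcnip2 0.03 without the Q33 groups. Without the Q33 groups the difference with minus without human TDP-43 was 66 in genes with a count, 0.024 in the TMM factor and -0.742 percentage points in mitochondrial ribosomal RNA, and the TMM factor's ran from -0.0281 to 0.0029 with each library left out. List medians changed sign in 5 of 46 lists under library totals, where the largest was 0.02, and in 19 without the Q33 groups, among them caudal Hox genes (1.52 to -0.3). The causes were not tested. No paired analysis was possible because the labels give no replicate numbers.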

Other observations

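A few further genes had higher estimates with human TDP-43 without being called by edgeR. Sgk1, a kinase induced by stress hormones, was at 45.7 CPM ± 15.4 with and 28.7 CPM ± 7.07 without human TDP-43 (SD, n = 9 each), with log2 differences of 0.69, 0.77 and 0.51 by pair and an adjusted p of 0.5 in edgeR and 0.019 in DESeq2. Per1, a clock gene, was at 20.8 CPM ± 3.77 and 17.3 CPM ± 2.08, with 0.32, 0.36 and 0.08 by pair. Irf9, a factor of interferon signalling, was at 11.3 CPM ± 1.29 and 9.12 CPM ± 1.72, while the median of the interferon list was 0.05. Ier2, an immediate early gene, was at 1.24 CPM ± 0.275 and 0.857 CPM ± 0.19, with 0.60, 0.71 and 0.31 by pair. These genes were chosen after their values were seen. Per1, Irf9 and Ier2 had the smallest p of the clock, interferon and immediate early lists, whose medians were 0, 0.05 and 0.04. Estimates were higher for 8 of 16, 13 of 20 and 8 of 13 members tested.

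Of 9 markers tested that differ between C57BL/6 substrains 0 were called, 2 had an unadjusted p under 0.05 (Gabra2 and Wdfy1, both higher, where 4.57% of all genes had one) and the median was 0.04. That count was 0 without NTg replicate 2 or TDP-43 replicate 2, and 0 to 2 with any 1 library left out. Nnt was at 2.47 CPM ± 0.564 with and 2.73 CPM ± 0.368 without human TDP-43. Gabra2 had log2 differences of 0.59, 0.26 and -0.12 by pair, and Wdfy1 of 0.62, -0.25 and 0.99.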
